A study of Mus musculus with 15 samples.

Results

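The genes described are 10 immediate early genes of neurons, chosen by symbol: Fos, Fosb, Junb, Egr1, Egr2, Egr3, Npas4, Nr4a1, Arc and Ier2. All 10 were matched by Ensembl identifier among the 56748 identifiers of the deposited count table, and all 10 were among the 22998 genes that passed the expression filter. The count table holds 15 libraries of total RNA from the brains of C57BL/6J mice, with wild type given as the genotype and 5 animals in each of 3 groups. Each animal had a single session of intermittent theta-burst stimulation (iTBS), of continuous theta-burst stimulation (cTBS) or of sham stimulation, and the tissue was taken 3 hours later. No transgene or drug is named for any group, and the labels used here state neither the stimulator and its intensity nor the animals' age and sex. The sample titles place the tissue in somatosensory cortex and the series design in sensorimotor cortex. Markers of cortical excitatory neurons were present in every library, with none of the 10 in the list at 0 and a summed level of 1672 to 2584 CPM (counts scaled to a common library total). Libraries are named by group and replicate, as sham 1 to sham 5.

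Immediate early genes are transcribed within minutes of synaptic activity, from factors such as CREB and SRF that are already in the neuron, and need no new protein. Their messenger RNAs are mostly short-lived. Most of the 10 encode transcription factors: Fos, Fosb and Junb pair as the AP-1 complex, Egr1 to Egr3 are zinc-finger factors, Npas4 is a calcium-induced factor that shapes inhibitory synapses, and Nr4a1 is an orphan nuclear receptor. Arc acts at the synapse, where it promotes internalization of AMPA receptors. Ier2 encodes a small nuclear protein induced by growth factors and by activity.

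Library totals ran from 15385070 to 47807723 counts. The lowest raw count of any of the 10 genes in any library was 121 (Ier2), so counting error was small beside the spread between libraries. Other tissue varied between libraries: the summed level of 14 markers of striatal projection neurons ran from 718 to 1931 CPM in sham, 992 to 2360 in iTBS and 953 to 2310 in cTBS. The 11 nuclear-retained noncoding RNAs summed to 4274 to 16949 CPM in sham, 6442 to 16365 in iTBS and 3136 to 7944 in cTBS. The sum of choroid plexus markers was 269.6 to 289.7 CPM in sham 2, sham 5 and cTBS 4, 80.7 in iTBS 5 and 6.64 to 34.3 in the other 11 libraries. In bulk tissue, fewer expressing cells and less RNA per cell cannot be told apart.

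Arc was the most abundant of the 10 genes per unit of exon length and Fosb the least. Mean levels over the 15 libraries, in CPM per kilobase of exon, were 133 for Arc, 98.7 for Egr1, 55.9 for Egr3, 40.6 for Nr4a1, 29.4 for Junb, 17.7 for Fos, 7.56 for Npas4, 5.78 for Ier2, 5.18 for Egr2 and 4.37 for Fosb. Each gene exceeded the next in this order in 13 to 15 of the 15 libraries, except that Ier2 exceeded Egr2 in 9, so those neighbours were not separated. The ratio of the highest to the lowest library was 2.13 for Npas4, 4.08 for Egr2 and in between for the other 8 genes. The biological coefficient of variation that edgeR assigned ran from 18.02% for Npas4 to 30.4% for Fosb, at percentiles 52.9 to 73.0 of all genes tested. The median over all genes tested was 16.7% and the common value 20.1%.

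**Figure D1:**
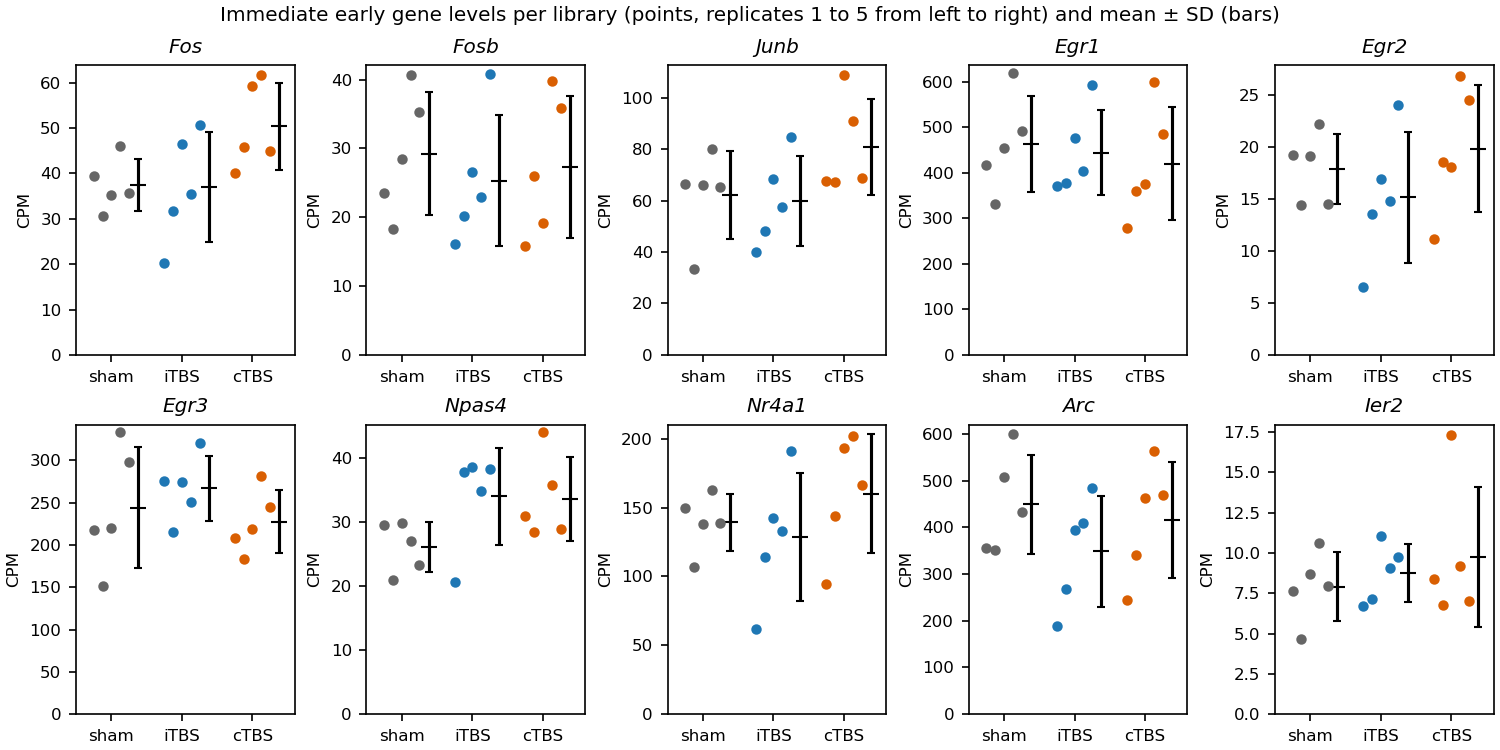
Level of each gene in each library in CPM (vertical axis, from 0) for sham, iTBS and cTBS; points are replicates 1 to 5 from left to right and bars are the mean ± SD over 5 libraries. The 3 groups overlap for all 10 genes, and iTBS 1 is the lowest point of its group for 9 of them.

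RefSeq promoter windows were matched for 6 of the 10 genes, as 10 windows: 1 each for Fos, Fosb, Junb, Nr4a1 and Npas4 and 5 for Egr2. Those of Fos, Fosb and Junb, the AP-1 genes, and of Nr4a1 are shown as examples of genes with 1 window that holds the cAMP response half-site. Each window is the 250 bases before the annotated start, 5′ to 3′ on the gene's strand, in build GRCm38.p6, which is older than the GRCm39 build of the counts. The positions are chr12:85473640-85473889 (plus strand) for Fos, chr15:101266596-101266845 (plus) for Nr4a1, chr7:19310046-19310295 (minus) for Fosb and chr8:84978749-84978998 (minus) for Junb. Capitals mark matches to TGACG (the cAMP response half-site, CGTCA on the other strand), to GCGNGGGCG (an EGR site, read on both strands) and, on either strand, to TATAAA, the core of the element that positions the polymerase.
Fos: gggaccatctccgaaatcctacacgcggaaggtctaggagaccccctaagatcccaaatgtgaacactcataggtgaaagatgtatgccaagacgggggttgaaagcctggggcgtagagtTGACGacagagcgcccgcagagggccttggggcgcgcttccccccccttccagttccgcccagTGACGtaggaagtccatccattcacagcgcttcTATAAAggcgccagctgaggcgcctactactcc
Nr4a1: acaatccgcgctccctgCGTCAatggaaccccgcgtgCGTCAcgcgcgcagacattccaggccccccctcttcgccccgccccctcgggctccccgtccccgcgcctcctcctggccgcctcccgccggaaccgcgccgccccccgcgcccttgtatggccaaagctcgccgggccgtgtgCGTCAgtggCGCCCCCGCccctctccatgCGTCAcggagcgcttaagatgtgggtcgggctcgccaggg
Fosb: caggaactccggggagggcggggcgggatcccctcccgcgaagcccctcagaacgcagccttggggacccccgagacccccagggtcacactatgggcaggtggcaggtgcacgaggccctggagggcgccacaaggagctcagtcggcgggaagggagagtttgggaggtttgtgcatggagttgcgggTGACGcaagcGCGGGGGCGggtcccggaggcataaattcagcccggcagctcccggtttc
Junb: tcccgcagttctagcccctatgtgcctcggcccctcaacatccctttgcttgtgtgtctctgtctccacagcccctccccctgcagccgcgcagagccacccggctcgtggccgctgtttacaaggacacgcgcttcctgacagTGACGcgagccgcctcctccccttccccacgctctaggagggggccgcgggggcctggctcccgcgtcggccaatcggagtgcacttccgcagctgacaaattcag
The half-site was in 8 of the 10 windows and in at least 1 window of all 6 genes, against 17.8% of the 32851 RefSeq windows of the same length. Among the 8 are 3 overlapping windows of Egr2 that hold the same half-sites, so the windows are not independent. The count of genes is not comparable with a share of windows, since Egr2 has 5. In Fos it lay at bases 129 to 125 and 66 to 62 before the start, and TATAAA at bases 33 to 28, letters found in 12.4% of all windows. Nr4a1 had 4 half-sites, the nearest at bases 40 to 36, Fosb had 1 at bases 60 to 56 and Junb 1 at bases 106 to 102. The EGR site was in the windows of Fosb and Nr4a1, against 4.70% of all windows. A CArG box, the site of SRF, was in 4 of the 5 Egr2 windows, as CCATATATGG in 3 overlapping ones, against 1.47% of all windows. Searches of both strands for the full cAMP response element TGACGTCA, the AP-1 site TGANTCA, the NR4A site AAAGGTCA and the MEF2 site found no match in these 10 windows, against 1.55%, 6.75%, 1.34% and 2.92% of all windows. TGACG is part of TGACGTCA, so the first of these searches overlaps with the half-site. A match is a string of letters and not a measured binding site.

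None of the 10 genes passed the test in any of the 3 comparisons, and no gene had groups of libraries that did not overlap. With the quasi-likelihood test of edgeR and Benjamini-Hochberg adjustment at 0.05, 0 of the 22998 genes were called in each comparison, and the smallest adjusted p over all genes was 1.00 with iTBS set against sham, 0.144 with cTBS set against sham and 0.0838 between the stimulated groups. DESeq2 called 0, 471 and 2699 genes in these comparisons and limma-trend called 0 in each, with none of the 10 genes among them. At an unadjusted edgeR p under 0.05, 1 of the 10 genes was above sham after iTBS (Npas4), where 1.93% of all genes tested reached that level in either direction, 0.952% higher and 0.974% lower. For cTBS against sham it was 2 of 10, both higher (Fos and Npas4), where 24.4% of all genes reached it, 6.80% higher and 17.6% lower. For iTBS against cTBS it was 1 of 10, lower (Fos), where 30.6% of all genes reached it, 20.0% higher and 10.6% lower. DESeq2 and limma-trend each gave 1, 2 and 2 of the 10 genes at that level. Over all genes DESeq2 had 491, 6895 and 8502 of 45315 there, and limma-trend 418, 5979 and 7442 of 22998. With a term for the replicate number (the replicate block) edgeR gave 2, 3 and 4, beside 533, 5601 and 7294 of all 22998 genes. With the number in the sample description as a covariate it gave 1, 3 and 3 (489, 5505 and 6857 of all genes). The striatal level gave 1, 4 and 2 (677, 6093 and 7378) and the level of nuclear-retained RNA 1, 2 and 1 (804, 1333 and 1775). The counts of the main edgeR fit moved with single libraries: for iTBS against sham it was 0 without sham 2, sham 5 or any of iTBS 2 to 5. For cTBS against sham it was 0 without sham 2, sham 5 or cTBS 3, 1 without sham 1, sham 3 or cTBS 4, and 3 without sham 4. For iTBS against cTBS it was 0 without iTBS 2, iTBS 4, cTBS 3 or cTBS 4, 2 without sham 2 or sham 4, and 4 without iTBS 5 or cTBS 1. In these fits the counts over all genes moved too. For iTBS against sham they ran from 340 of 23368 without iTBS 4 to 567 of 23508 without sham 4. For cTBS against sham they ran from 3409 of 23341 without sham 3 to 9725 of 23508 without sham 4. For iTBS against cTBS they ran from 4784 of 23368 without iTBS 4 to 9187 of 23481 without iTBS 1. There they were 7856 of 23614 without iTBS 5 and 5611 of 23515 without cTBS 1. Groups without overlap made up 0.452%, 1.34% and 3.92% of all genes in the 3 comparisons, against 0 of 10 here. The stimulated groups share the sham libraries, so their differences from sham are not independent of each other.

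The median log2 fold change of the 10 genes was -0.06 between iTBS and sham, 0.17 between cTBS and sham and -0.21 between iTBS and cTBS, beside -0.00097, -0.02 and 0.03 over all genes tested. For iTBS against sham 3 of the 10 fitted differences were above 0 and for cTBS against sham 6 of 10. With single libraries left out, the first median ran from -0.21 without iTBS 5 to 0.07 without sham 4. The second ran from 0.099 without cTBS 3 to 0.35 without cTBS 1, and was -0.03 without sham 2, sham 5 and cTBS 4, the 3 libraries highest in choroid plexus markers; iTBS 5, the next, was kept. The third ran from -0.42 without iTBS 5 to -0.13 without iTBS 1. The mean level of the 10 genes was 6.03 ± 0.31 log2 CPM (SD, n = 5) in sham, 5.97 ± 0.41 in iTBS and 6.15 ± 0.31 in cTBS.

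**Figure D2:**
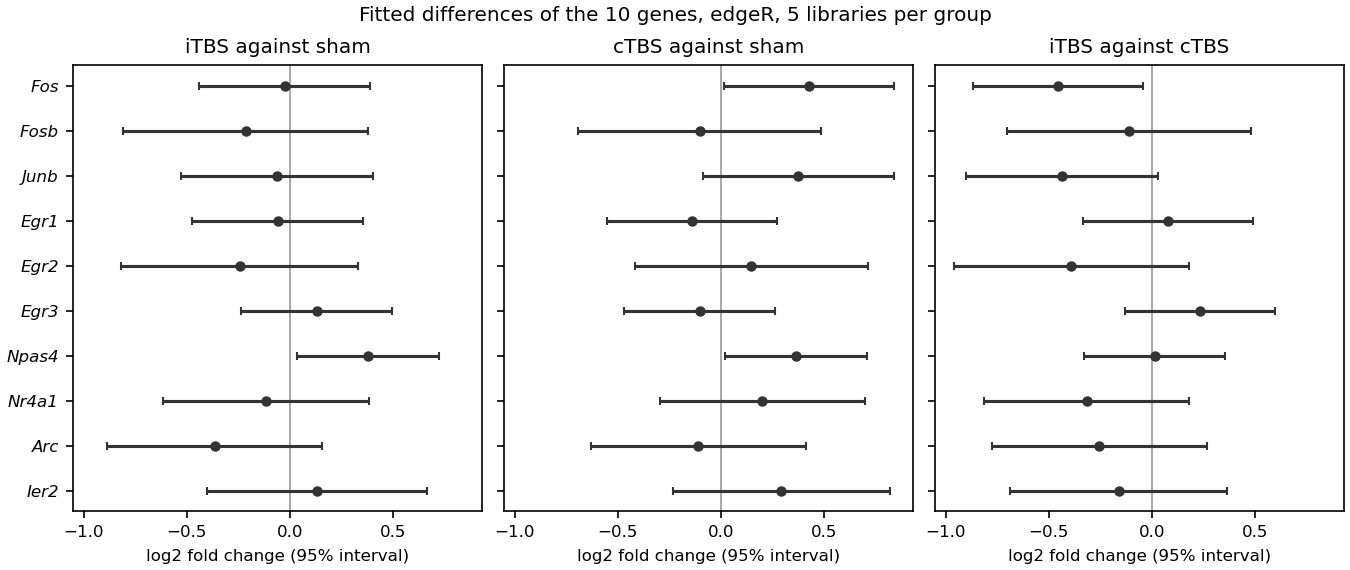
Fitted log2 fold change of each gene (points) with its 95% interval (bars) from edgeR for iTBS against sham, cTBS against sham and iTBS against cTBS, 5 libraries per group. Intervals exclude 0 for Npas4 in the first panel, for Fos and Npas4 in the second and for Fos in the third, and no gene passed after adjustment.

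Among the AP-1 genes, Fos and Junb had higher means after cTBS than in both other groups, and Fosb did not. Fos, which binds DNA as a dimer with Jun proteins, was at 39.5, 30.6, 35.2, 46.0 and 35.6 CPM in sham 1 to 5, at 20.2, 31.8, 46.4, 35.4 and 50.7 in iTBS 1 to 5 and at 40.1, 45.8, 59.3, 61.8 and 45.05 in cTBS 1 to 5. All 5 cTBS libraries lay above the sham median and 2 above every sham library, and sham 4 lay within the cTBS range. Means were 37.4 ± 5.73 CPM in sham, 36.9 ± 12.1 in iTBS and 50.4 ± 9.55 in cTBS (SD, n = 5). The log2 fold change of Fos was 0.43 ± 0.19 (SE; 95% interval 0.02 to 0.84) for cTBS against sham with an edgeR adjusted p of 0.193. For iTBS against cTBS it was -0.46 ± 0.20 (-0.87 to -0.04) with an edgeR adjusted p of 0.133, and for iTBS against sham -0.03 ± 0.20 (-0.44 to 0.39). Without sham 4, the sham library highest in Fos, Fos was called for cTBS against sham (0.57 ± 0.20, edgeR adjusted p = 0.0475), as 1 of 5726 genes called in all. Without sham 2, sham 5 and cTBS 4 the value was 0.29 ± 0.24 (edgeR adjusted p = 0.543), and over all alternatives the adjusted p ran from 0.0475 to 0.864.

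Markers of tissue and cell types and nuclear-retained RNAs are given beside these values, and edgeR called 0 of them. All 14 striatal markers had fitted differences above 0 for cTBS against sham, with a median of 0.67. Of these 5 reached an unadjusted edgeR p under 0.05, beside 6.80% of all genes higher at that level. All 10 markers each of astrocytes, oligodendrocytes and microglia were above 0, with 3, 3 and 4 higher at that level. For interneurons and meningeal fibroblasts it was 9 of 10 each, with 3 and 4 at that level. Of 9 tested markers each of thalamus and choroid plexus 8 were below 0, with 0 and 1 lower at that level. Of 10 markers of cortical excitatory neurons 4 were above 0 and 6 below, with 1 higher at that level and a median of -0.03. Of 8 markers of oligodendrocyte precursors 6 were above 0, with 1 higher at that level. For endothelial and mural cells it was 8 of 12 with 0 at that level, and for blood 2 of 4 tested with 1 lower. Of the 11 nuclear-retained RNAs 10 were below sham at that level, with a median of -0.99, beside 17.6% of all genes lower. The part of these lists in the value of Fos was not tested beyond the fits that follow, on nuclear-retained RNA and striatal markers. With the level of nuclear-retained RNA as a covariate Fos was at 0.33 ± 0.22, and with the striatal level at 0.56 ± 0.21.

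Junb, a partner of Fos and Fosb, was at 66.4, 33.5, 66.1, 79.9 and 65.2 CPM in sham, at 40.2, 48.3, 68.5, 57.4 and 84.6 in iTBS and at 67.8, 67.4, 109, 91.0 and 68.9 in cTBS. All 5 cTBS libraries were above the sham median of 66.1 CPM, though cTBS 1, 2 and 5 only slightly. Sham 2 was far below the other sham libraries. The fitted difference was 0.37 ± 0.22 for cTBS against sham (95% interval -0.09 to 0.84, edgeR adjusted p = 0.289) and -0.44 ± 0.22 for iTBS against cTBS (-0.90 to 0.03, edgeR adjusted p = 0.186). For iTBS against sham it was -0.06 ± 0.22 (-0.53 to 0.40). Without sham 2 the difference for cTBS against sham was 0.22 ± 0.19, and without sham 4 it was 0.54 ± 0.22. Without sham 2, sham 5 and cTBS 4 it was 0.20 ± 0.23.

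Fosb, whose truncated form accumulates with repeated activity, was at 23.6, 18.3, 28.5, 40.6 and 35.3 CPM in sham, at 16.2, 20.1, 26.6, 22.9 and 40.8 in iTBS and at 15.8, 26.0, 19.1, 39.8 and 35.8 in cTBS. The 3 groups covered nearly the same range. Log2 fold changes were -0.22 ± 0.28 (95% interval -0.81 to 0.38) for iTBS against sham, -0.10 ± 0.28 (-0.69 to 0.49) for cTBS against sham and -0.11 ± 0.28 (-0.70 to 0.48) for iTBS against cTBS. These intervals leave room for a change in either direction, and counts per gene do not separate the full-length and truncated forms.

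The intervals of the 3 Egr genes included 0 in each comparison. Egr1, a factor linked to long-lasting synaptic plasticity, was at 417, 332, 455, 619 and 491 CPM in sham, at 370.1, 377, 476, 404 and 593 in iTBS and at 279, 361, 376, 600.0 and 486 in cTBS. One library in each group stood high (sham 4, iTBS 5 and cTBS 4), and the groups overlapped almost fully. Egr1 was at -0.06 ± 0.20 (95% interval -0.47 to 0.35) for iTBS against sham, -0.14 ± 0.20 (-0.55 to 0.27) for cTBS against sham and 0.08 ± 0.20 (-0.33 to 0.49) for iTBS against cTBS.

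Egr2, which is also the regulator of myelination in Schwann cells, was at 19.2, 14.4, 19.1, 22.2 and 14.5 CPM in sham, at 6.56, 13.6, 16.9, 14.8 and 24.0 in iTBS and at 11.2, 18.6, 18.03, 26.8 and 24.5 in cTBS. The lowest of the 15 libraries was iTBS 1 and the highest cTBS 4. Its log2 fold change was -0.25 ± 0.27 (95% interval -0.82 to 0.33) for iTBS against sham, 0.15 ± 0.27 (-0.42 to 0.71) for cTBS against sham and -0.39 ± 0.27 (-0.96 to 0.18) for iTBS against cTBS.

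Egr3, the family member needed for muscle spindles, was at 218, 151, 221, 333 and 298 CPM in sham, at 275, 215, 274, 251 and 321 in iTBS and at 208, 184, 219, 282 and 245 in cTBS. Sham libraries spread more widely than both stimulated groups and held the lowest and the highest of the 15. The fitted differences were 0.13 ± 0.17 (95% interval -0.24 to 0.50), -0.10 ± 0.17 (-0.47 to 0.26) and 0.23 ± 0.17 (-0.13 to 0.60) in the same order of comparisons.

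Npas4, which is induced by calcium entry through channels and receptors, was at 29.6, 21.0, 29.9, 27.1 and 23.2 CPM in sham, at 20.7, 37.8, 38.6, 34.8 and 38.3 in iTBS and at 30.9, 28.5, 44.1, 35.9 and 28.9 in cTBS. In iTBS 4 of 5 libraries lay above every sham library and iTBS 1 below every sham library. All 5 cTBS libraries were above the sham median and 3 above every sham library. Npas4 had a log2 fold change of 0.38 ± 0.16 for iTBS against sham (95% interval 0.03 to 0.72, edgeR adjusted p = 1.00) and of 0.36 ± 0.16 for cTBS against sham (0.02 to 0.71, edgeR adjusted p = 0.186). Without iTBS 1 the first was 0.51 ± 0.13 (edgeR adjusted p = 1.00, as under every alternative run). Without sham 2, sham 5 and cTBS 4 both were smaller, at 0.25 ± 0.19 and 0.26 ± 0.19. Between iTBS and cTBS Npas4 differed by 0.01 ± 0.16 (-0.33 to 0.35), a value whose sign changed with DESeq2 scaling (-0.02).

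Nr4a1, the nuclear receptor, was at 149, 107, 138, 163 and 138 CPM in sham, at 62.1, 114, 143, 133 and 191 in iTBS and at 94.6, 144, 193, 202 and 166 in cTBS. In cTBS 3 of 5 libraries were above every sham library and cTBS 1 below every one. The log2 fold change was -0.12 ± 0.24 (95% interval -0.61 to 0.38) for iTBS against sham, 0.20 ± 0.23 (-0.30 to 0.70) for cTBS against sham and -0.32 ± 0.24 (-0.81 to 0.18) for iTBS against cTBS.

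Arc was at 356, 351, 508, 599.8 and 433 CPM in sham, at 189, 268, 394, 410.0 and 485 in iTBS and at 245, 341, 463, 564 and 469.5 in cTBS. The 2 lowest iTBS libraries and the 2 lowest cTBS libraries lay below every sham library, and no stimulated library exceeded sham 4. Its difference was -0.37 ± 0.25 (95% interval -0.89 to 0.16, edgeR adjusted p = 1.00) for iTBS against sham. It was -0.11 ± 0.25 (-0.63 to 0.41) for cTBS against sham and -0.25 ± 0.25 (-0.78 to 0.27) for iTBS against cTBS. With the number in the sample description as a covariate, Arc was at -0.23 ± 0.14 for iTBS against sham. With the replicate block it was at -0.41 ± 0.11, and Arc was called in neither fit.

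Ier2 was at 7.63, 4.68, 8.69, 10.6 and 7.96 CPM in sham, at 6.70, 7.16, 11.1, 9.09 and 9.74 in iTBS and at 8.39, 6.78, 17.3, 9.22 and 7.002 in cTBS. A single library, cTBS 3, stood above all others, and the remaining 14 overlapped across groups. Log2 fold changes were 0.13 ± 0.25 (95% interval -0.40 to 0.67), 0.29 ± 0.25 (-0.24 to 0.82) and -0.16 ± 0.25 (-0.69 to 0.37), in the same order of comparisons. Without cTBS 3 the difference for cTBS against sham was 0.026 ± 0.20 in place of 0.29, and that for iTBS against cTBS was 0.11.

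The differences between libraries of the same group ran through nearly all 10 genes. In iTBS 1, 9 of the 10 genes were below the mean of their group, Egr3 being the exception, and 5 were the lowest of the 15 libraries. All 10 were below the group mean in cTBS 1 and sham 2, and all 10 were above it in iTBS 3, iTBS 5, cTBS 4 and sham 4. Sham 4 was the highest sham library for 9 genes, iTBS 5 the highest iTBS library for 8 and cTBS 4 the highest cTBS library for 7. The mean deviation of the 10 genes from their group ran from -0.60 log2 units in iTBS 1 to 0.49 in iTBS 5. Within a library the genes were not equal: in iTBS 1, Egr2 was at -1.08 and Egr3 at 0.05, and in cTBS 3, Ier2 was at 0.92 and Fosb at -0.43.

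**Figure D3:**
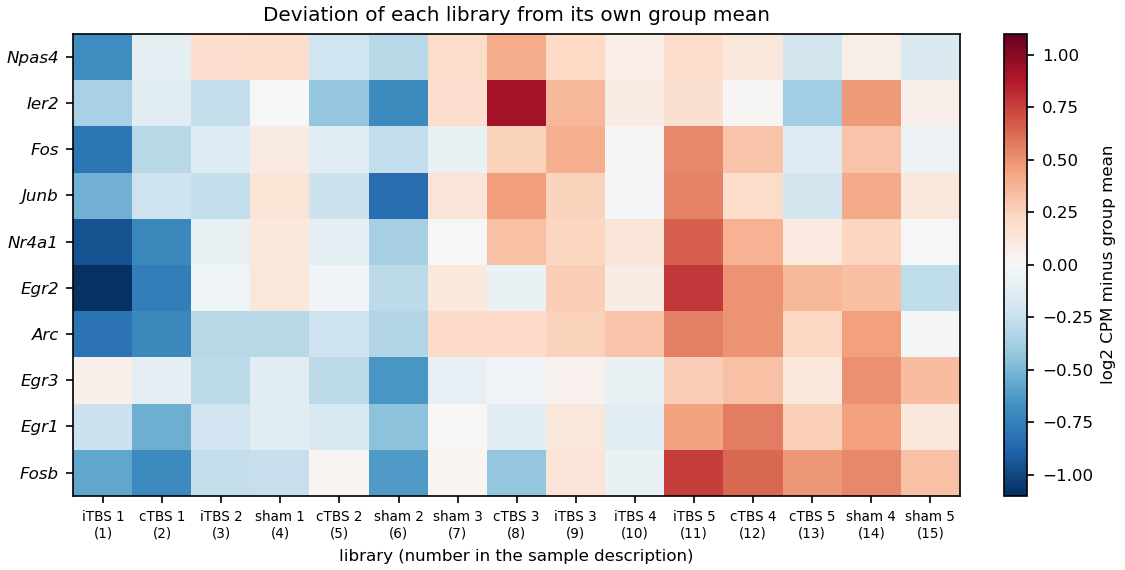
Difference of each library from its own group mean in log2 CPM (colour, blue below and red above) for the 10 genes (rows) and 15 libraries (columns, ordered by the number in the sample description, in brackets). Columns iTBS 1, cTBS 1 and sham 2 are mostly blue and iTBS 5, cTBS 4 and sham 4 are red in every row.

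Over deviations from group means in the 15 libraries, all 45 pairs of the 10 genes had a Pearson r above 0. The median r was 0.729 (jackknife SE 0.0767), with a range of 0.153 to 0.949. Within the groups, whose 5 libraries each are too few for a test, the median r was 0.819 in sham, 0.869 in iTBS and 0.646 in cTBS. There 5 of the 45 pairs were below 0 in cTBS (Fosb with Ier2, Npas4 and Junb, and Ier2 with Egr1 and Egr2), 1 in iTBS (Egr3 with Npas4) and 0 in sham. Over pairs of the 16658 other named genes with a mean of at least 1 CPM the median was 0.006, and 4.45% of those pairs exceeded 0.729. By permutation within groups with Benjamini-Hochberg adjustment over the 45 pairs, 32 pairs had an adjusted p under 0.05 by r and 34 by Spearman rho. A first principal component of the 10 standardized genes took up 71.0% of their variance, with weights of the same sign for all of them, from 0.25 for Egr3 to 0.35 for Nr4a1.

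The tightest pair was Fosb and Egr1, with r = 0.949 (permutation p = 2e-05, adjusted p = 0.00045) and rho = 0.925 (permutation p = 3e-05), and r = 0.929 without the 2 libraries farthest from the median. Fos and Nr4a1 had r = 0.935 (permutation p = 1e-05, the smallest the 100000 permutations can give, adjusted p = 0.00045) and rho = 0.943 (permutation p = 1e-05), and r = 0.847 without the farthest 2. Egr2 and Nr4a1 had r = 0.938 (permutation p = 0.00028, adjusted p = 0.00149) and rho = 0.782 (permutation p = 0.00406), and r = 0.819 without iTBS 1 and cTBS 1. The same receptor followed Arc with r = 0.914 (permutation p = 5e-05, adjusted p = 0.000563) and rho = 0.896 (permutation p = 0.00015), and r = 0.816 without those 2 libraries. Junb and Ier2 had r = 0.871 (permutation p = 0.00011, adjusted p = 0.000825) and rho = 0.861 (permutation p = 0.00015), and r = 0.826 without iTBS 1 and sham 2.

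Egr3, Ier2 and Npas4 moved least with the rest: each had 4 of 9 partners at an adjusted permutation p under 0.05, against 6 to 9 for the other 7 genes. Their median r with the others was 0.522, 0.560 and 0.651, and that of Arc was 0.817. The pair of Egr3 and Npas4 was the weakest of the 45, with r = 0.153 (permutation p = 0.564) and rho = 0.0750 (permutation p = 0.796), and r = -0.0787 without sham 2 and sham 4. Npas4 followed Fos with r = 0.810 (permutation p = 0.00234, adjusted p = 0.00501) and rho = 0.714 (permutation p = 0.00607), and r = 0.654 without the farthest 2, but its r with Fosb was 0.283 (permutation p = 0.341; rho = 0.225, permutation p = 0.453; r = 0.200 without the farthest 2). Its relation to Egr2 was r = 0.651 (permutation p = 0.0445, adjusted p = 0.0572; rho = 0.457, permutation p = 0.118) and rested on iTBS 1 and cTBS 1, without which r was 0.340. The second principal component held 14.7% of the variance and set Npas4 (weight 0.53) and Ier2 (0.40) against Fosb (-0.44), Egr1 (-0.39) and Egr3 (-0.37).

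**Figure D4:**
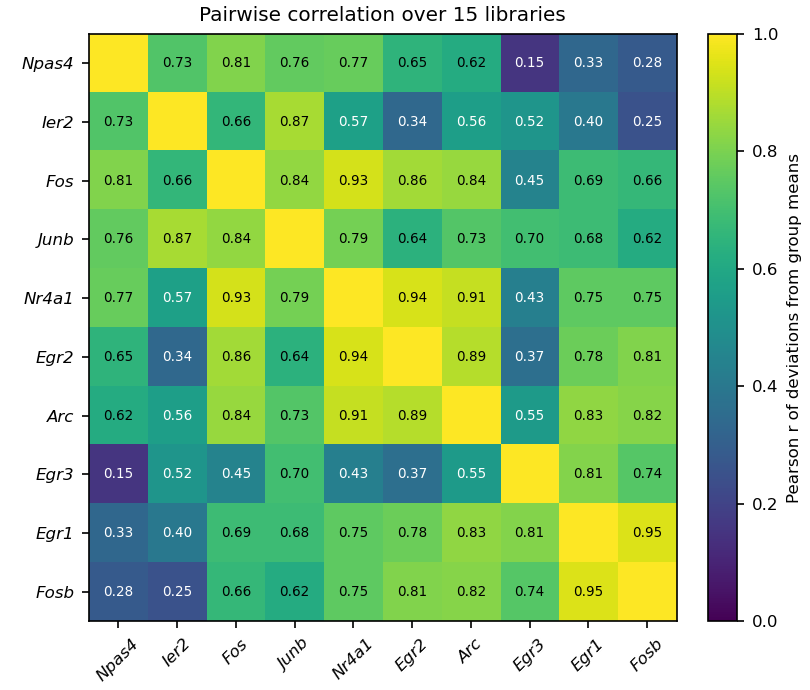
Pearson r of each pair of genes over 15 libraries, from log2 CPM as deviations from group means (colour and printed value). Every value is above 0, from 0.15 for Egr3 with Npas4 to 0.95 for Fosb with Egr1.

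Several of the genes moved with the number that the sample descriptions give each library, from 1 to 15. What the number counts is not stated in the labels, and the replicate numbers follow it within each group. The 3 groups are mixed along it but not evenly. Numbers are 1, 3, 9, 10 and 11 in iTBS, 2, 5, 8, 12 and 13 in cTBS and 4, 6, 7, 14 and 15 in sham. With the number as a covariate, the median log2 fold change of the 10 genes for iTBS against sham was 0.04 in place of -0.06. For cTBS against sham it was 0.20 in place of 0.17, and for iTBS against cTBS -0.15 in place of -0.21. Over deviations from group means, 40 relations of the 10 genes with 4 library measures were computed, and 7 had an adjusted permutation p under 0.05, 6 of them with the library number. Arc had r = 0.844 with it (permutation p = 0.00055, adjusted p = 0.0112) and rho = 0.793 (permutation p = 0.00091), and r = 0.776 without iTBS 1 and cTBS 1, the libraries numbered 1 and 2. For each library measure the farthest 2 libraries were picked by the measure and not by the gene, so they were the same for every gene. Fosb had r = 0.844 (permutation p = 0.00068, adjusted p = 0.0112) and rho = 0.832 (permutation p = 0.00064), and r = 0.778 without them. Egr1 had r = 0.816 (permutation p = 0.00084, adjusted p = 0.0112) and rho = 0.850 (permutation p = 0.00054), and r = 0.764 without them. Egr3 had r = 0.703 (permutation p = 0.00822, adjusted p = 0.0470) and rho = 0.754 (permutation p = 0.00603), and r = 0.819 without them.

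Nr4a1 and Egr2 followed the number less firmly. Nr4a1 had r = 0.7101 (permutation p = 0.00208, adjusted p = 0.0208) and rho = 0.650 (permutation p = 0.0142), and r = 0.554 without libraries 1 and 2. Egr2 had r = 0.660 (permutation p = 0.00822, adjusted p = 0.0470) and rho = 0.604 (permutation p = 0.0275), and r = 0.453 without them. Fos had r = 0.625 (permutation p = 0.0152, adjusted p = 0.0762; rho = 0.582, permutation p = 0.0297), Junb 0.559 (adjusted p = 0.168 by permutation), Ier2 0.384 and Npas4 0.264. Among the r of those 16658 genes with the number, the values of the 10 genes lay at percentiles 75.3 (Npas4) to 99.9 (Arc and Fosb), with a median r over other genes of -0.0145. With the number also removed, the median r between pairs of the 10 genes was 0.477 in place of 0.729, a setting chosen after the data were seen.

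**Figure D5:**
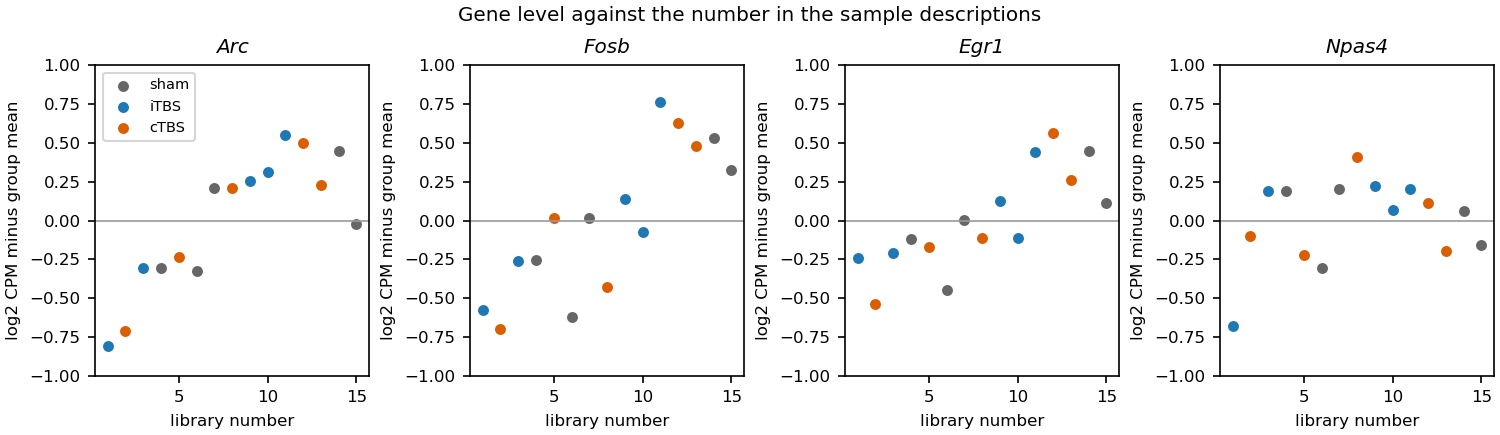
Level of Arc, Fosb, Egr1 and Npas4 in each library as the difference from its group mean in log2 CPM (vertical axis) against the library number in the sample description (horizontal axis), coloured by group. Arc, Fosb and Egr1 lie lower at low numbers and higher at high numbers in the 3 groups (r = 0.844, 0.844 and 0.816), and Npas4 shows little slope (r = 0.264).

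The seventh relation was between Ier2 and the level of striatal markers, with r = -0.759 (permutation p = 0.00389, adjusted p = 0.0311) and rho = -0.789 (permutation p = 0.00263), and r = -0.682 without iTBS 2 and sham 2. Junb had r = -0.597 with that level (permutation p = 0.0310, adjusted p = 0.132; rho = -0.554, permutation p = 0.0457), and r = -0.382 without the same 2 libraries. None of the 10 genes had an adjusted permutation p under 0.05 with the level of nuclear-retained RNA or with log2 total counts. Egr3 came nearest, with r = -0.619 with the nuclear RNA level (permutation p = 0.0331, adjusted p = 0.132; rho = -0.546, permutation p = 0.0590), and r = -0.354 without cTBS 4 and sham 4.

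Genes outside the 10 whose profile over the libraries was most like the mean of the 10 were searched among the same 16658 genes. The 10 nearest were Dusp5 (r = 0.910), Klf4 (0.895), Trib1 (0.877), Gadd45b (0.870), Uhrf1bp1 (0.863), Csrnp1 (0.861), Dusp1 (0.859), F2rl2 (0.858), Dusp6 (0.857) and Midn (0.849). Dusp1, Dusp5 and Dusp6 are phosphatases of MAP kinases, Klf4 is a zinc-finger factor and Gadd45b is a stress-response gene. For single genes the nearest were Nr4a3, a relative of Nr4a1, for Fosb (r = 0.963), Midn for Egr1 (0.952), Mast3 for Egr3 (0.977), Frmd6 for Arc (0.945), Per1, a clock gene, for Egr2 (0.934), and Rel, an NF-kappaB subunit, for Nr4a1 (0.918). The nearest to Fos was Dusp1 (0.854), to Junb Hmg20b (0.907), to Npas4 Esyt1 (0.862) and to Ier2 Zkscan17 (0.940). These are the top values of a search over many genes in 15 libraries and are given as descriptions.

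Other genes of the same response were counted in lists. In each list and comparison 0 members were called by edgeR, and counts here are at an unadjusted p under 0.05. Of 35 other rapid response genes, 1 was higher and 5 lower for iTBS against sham, where 0.952% of all genes were higher and 0.974% lower, with 28 of 35 fitted differences below 0 and a median of -0.20 beside -0.00097 over all genes. Klf10, a TGF-beta inducible repressor, was at 43.9 ± 8.82 CPM after iTBS and 64.9 ± 11.3 in sham (SD, n = 5; -0.56 ± 0.15), and Tiparp at 18.2 ± 3.38 and 26.2 ± 2.46 (-0.53 ± 0.14). Per1 was at 125 ± 30.1 and 172 ± 22.5 CPM (-0.46 ± 0.19). For cTBS against sham 1 was higher and 2 lower of the 35, where the shares over all genes were 6.80% and 17.6%, with a median of -0.0019 and Btg2, an antiproliferative gene, at 25.7 ± 6.80 CPM against 16.8 ± 4.72 (0.62 ± 0.20). For iTBS against cTBS 2 were higher and 9 lower, where 20.0% of all genes were higher and 10.6% lower, with a median of -0.18 beside 0.03 over all genes.

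Partners and relatives of the 10 genes were counted at the same unadjusted edgeR p under 0.05. Over all genes 0.952% were higher and 0.974% lower at that level for iTBS against sham. These shares were 6.80% and 17.6% for cTBS against sham, and 20.0% and 10.6% for iTBS against cTBS. Of 9 AP-1 partners 8 were tested, of which 1 was lower for iTBS against sham (Mafk, -0.31 ± 0.11) and 1 lower for cTBS against sham (Maff, -0.48 ± 0.22), and 0 were at that level between iTBS and cTBS. Jun, the usual partner of Fos, was at 42.2 ± 1.98 CPM after cTBS and 36.7 ± 5.73 in sham (0.20 ± 0.10). Of 7 relatives and cofactors of the Egr and Nr4a families 0 were at that level for iTBS against sham, 1 was higher for cTBS against sham (Rxrb, 0.16 ± 0.06) and 1 lower for iTBS against cTBS (Nab1, a corepressor of Egr factors, -0.16 ± 0.07). Nr4a3 was at 49.5 ± 14.3 CPM after iTBS and 61.0 ± 13.02 in sham (-0.31 ± 0.23). Of 26 tested upstream regulators 0, then 1 higher and 3 lower, then 2 higher and 1 lower were at that level in the 3 comparisons. Mapk3, the kinase ERK1, was at 0.23 ± 0.11 and Arnt, a dimer partner of Npas4, at -0.38 ± 0.13 for cTBS against sham. Of 12 partners of Arc 1 was higher and 1 lower for cTBS against sham (Camk2b, 0.18 ± 0.08; Ube3a, -0.36 ± 0.11), 0 for iTBS against sham, and 1 higher and 1 lower for iTBS against cTBS (Ube3a, 0.35 ± 0.11; Sh3gl3, -0.23 ± 0.08). Of 17 late response genes 2 were lower for iTBS against sham (Gpr3, -0.41 ± 0.17; Dusp4, -0.48 ± 0.21) and 1 higher for cTBS against sham (Sertm1, 0.17 ± 0.07). Between iTBS and cTBS 1 of the 17 was higher after iTBS (Inhba, a subunit of activin, 0.37 ± 0.10) and 3 were lower, among them Cartpt (-0.53 ± 0.16) and Sertm1 (-0.21 ± 0.07).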

How the data were processed

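RNA was measured in 15 mouse brain libraries, per the labels' protocols from total RNA with ribosomal RNA removed and a kit that keeps strand. The authors deposited raw counts per Ensembl gene and the same genes after a variance-stabilizing transform, whose values resemble log2 counts. The submitters' processing notes name GRCm39, fastp, STAR and DESeq2, without roles or versions; no counter, annotation or strand setting is given in the sources used here, so overlapping and antisense genes are uncertain. Groups came from the treatment label.

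From the deposited counts, edgeR 4.0.16 in R 4.3.3 fitted all 15 libraries in 1 model with a term per group, TMM scaling and the default expression filter (22998 of 45315 genes with counts, 99.9% of the counts). Quasi-likelihood F tests were adjusted by Benjamini-Hochberg at 0.05 over all genes tested; the standard error is the fold change divided by the square root of F. CPM used TMM library sizes, and log2 CPM a prior count of 2. Gene names (52073 identifiers, 97.7% of counts) and exon lengths came from an annotation of the earlier build GRCm38. DESeq2 1.42.0 and limma 3.58.1 (limma-trend on the deposited transformed values) were alternatives. Co-variation used deviations from group means and 100000 permutations within groups, two-sided. Promoter windows came from RefSeq. The tests were tried on simulated data.

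The 10 genes, the 20 gene lists, the tests and the alternatives were chosen with earlier results of these data known. The text names all 10 genes, up to 3 genes per list and comparison with the smallest p, and the genes most like the 10 by r. Replicate numbers recur across groups, but same-numbered libraries deviated together with r from -0.564 to 0.717 over 15 pairs. Libraries of different groups and different numbers did so with r from -0.751 to 0.733. The numbers were therefore not taken as pairing animals.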

Additional observations from a re-analysis of the deposited data

Results flagged for a closer look

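Of the 30 sets of 5 libraries examined (10 genes in 3 groups), 2 held a library that lay apart from the other 4 of its group by Dixon's criterion on the log2 CPM scale, where chance gives about 1 in 20. Junb was at 33.5 CPM in sham 2, against 65.2 to 79.9 CPM in the other sham libraries. Sham 2 was the lowest sham library for all 10 genes, and its choroid plexus markers summed to 275 CPM and its thalamic markers to 558 CPM; their part in the value was not tested. Npas4 was at 20.7 CPM in iTBS 1, against 34.8 to 38.6 CPM in the other iTBS libraries. That library was the lowest iTBS library for 9 of the 10 genes and carries the lowest number in the sample descriptions. On the linear CPM scale the criterion also picked 2 libraries: Npas4 in iTBS 1 again and Ier2 in cTBS 3 (17.3 CPM), with Junb in sham 2 no longer beyond it.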

How the results depend on the processing

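The spread between the 5 libraries per group set the width of the intervals of the 10 genes, and changes within them were not detectable. This width depended on the model. For iTBS against sham the SE of Arc was 0.25 in the main fit. It was 0.14 with the library number as a covariate and 0.11 with the replicate block. The SE of Npas4 was 0.16, 0.17 and 0.15 in these fits. How much of the spread lay between animals was not tested. Of 780 values of single genes under alternatives, 716 kept their direction and side of the threshold, 63 changed sign and 1 (Fos, cTBS against sham, without sham 4) passed the threshold. The cause was not tested. Only 330 of the 780 came from fits other than those with a single library left out. Some of the rest lacked a library of the group not compared, which leaves the fold change little room to move. The median pairwise r of 0.729 was 0.638 with group means not removed, 0.612 with the replicate block removed and 0.477 with the library number also removed (chosen after the data were seen); leaving out single libraries gave 0.680 to 0.760.

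For cTBS against sham DESeq2 called 471 genes, and leaving out single libraries gave 0 to 5726 (1 without iTBS 1, 5726 without sham 4). For iTBS against cTBS DESeq2 called 2699 genes, the fit with the replicate block 5, and leaving out single libraries gave 0 to 4474 (4474 without iTBS 1, 3380 without cTBS 5, 3637 without sham 4). For iTBS against sham 0 genes were called in every setting run. The block changed no call of the 10 genes, and 5 of 15 libraries correlated best with their own number.

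Signs changed as follows, in log2 units. For iTBS against sham, the library number as a covariate gave 0.053 for Fos, 0.0056 for Fosb, 0.034 for Junb and 0.090 for Egr1. The striatal level as a covariate gave 0.034 for Fos, 0.086 for Junb and 0.025 for Egr1. Leaving out the libraries numbered 1 and 2 gave 0.12 for Fos, 0.046 for Junb and 0.054 for Nr4a1, and leaving out the 3 libraries highest in choroid plexus markers -0.044 for Ier2. Leaving out single libraries gave -0.18 to 0.13 for Fos, -0.23 to 0.061 for Junb, -0.20 to 0.081 for Egr1, -0.0011 to 0.28 for Egr3, -0.31 to 0.061 for Nr4a1 and -0.0081 to 0.28 for Ier2.

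For cTBS against sham, the striatal level gave 0.094 for Fosb, 0.032 for Egr1, 0.12 for Egr3 and 0.17 for Arc. Leaving out the libraries numbered 1 and 2 gave 0.066 for Fosb, 0.0023 for Egr1 and 0.059 for Arc, and leaving out the choroid plexus libraries -0.11 for Egr2. Single libraries left out gave -0.23 to 0.095 for Fosb, -0.25 to 0.034 for Egr1, -0.23 to 0.084 for Egr3 and -0.19 to 0.063 for Arc.

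For iTBS against cTBS, Fosb was at 0.012 with the library number, 0.13 with the nuclear RNA level and 0.020 without the choroid plexus libraries. Egr1 was at -0.0073 with the striatal level and -0.013 without libraries 1 and 2. Npas4 was at -0.020 with DESeq2 size factors, -0.053 with no filter on low counts, -0.077 with the nuclear RNA level, -0.031 with the striatal level, -0.0027 with only the 2 groups compared, -0.036 with the DESeq2 test, -0.037 with limma-trend and -0.012 without the choroid plexus libraries. Single libraries left out gave -0.40 to 0.019 for Fosb, -0.085 to 0.20 for Egr1, -0.081 to 0.10 for Npas4 and -0.27 to 0.11 for Ier2.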

Other observations

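The ratio of Fos to Egr1 was looked at after the levels had been seen and is given as a description. Fos as a percentage of Egr1 in CPM was 9.46, 9.22, 7.73, 7.43 and 7.25 in sham 1 to 5, 5.45, 8.44, 9.75, 8.76 and 8.56 in iTBS 1 to 5 and 14.4, 12.7, 15.8, 10.3 and 9.27 in cTBS 1 to 5. In cTBS 4 of 5 libraries lay above every sham library, and cTBS 5 lay within the sham range. The group means were 8.22 ± 1.04% in sham, 8.19 ± 1.62% in iTBS and 12.5 ± 2.72% in cTBS (SD, n = 5). The corresponding share for Fosb was 6.23 ± 0.69% in sham, 5.57 ± 0.90% in iTBS and 6.40 ± 0.99% in cTBS, and for Npas4 it was 5.81 ± 1.19%, 7.76 ± 1.76% and 8.53 ± 2.75%.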
